A study of Arabidopsis thaliana with 60 samples.

Results

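The genes described here are the 3917 nuclear pseudogenes of Arabidopsis thaliana, that is every gene of the nuclear chromosomes whose biotype is pseudogene in the RefSeq gene table of assembly TAIR10.1. The table holds 37899 nuclear genes of all kinds, of which 27444 are protein-coding. Another 926 are transcribed pseudogenes, a separate biotype kept here for comparison, and 6 pseudogenes of the organelle genomes were left out. The table gives no descriptions, so it does not part transposon remnants from decayed copies of coding genes. Only 27 pseudogenes carry a gene symbol. These are 16 Sadhu elements, 6 MUG genes, CYTOSLEEPER, RE2, EXT11, MEE19 and PMI15, so most of the symbols are names of transposons or of genes derived from them.

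Trimethylation of histone H3 at lysine 27 (H3K27me3) is the repressive mark of Polycomb repressive complex PRC2, whose catalytic subunits in the seedling are CURLY LEAF (CLF) and SWINGER (SWN), and REF6 is a demethylase that removes it. Lysine 4 trimethylation (called K4 here) is found near the starts of transcribed genes. ULTRAPETALA1 (ULT1), which has a SAND domain, is counted among the trithorax proteins. Plant transposons are mostly silenced by DNA methylation and methylation of another lysine, in the dense chromatin around the centromeres, which as a rule carries little of either mark profiled here. Sadhu elements are short retrotransposons that make no enzymes of their own and are known for differences in silencing between accessions. MUG genes (MUSTANG) are domesticated Mutator transposases, CYTOSLEEPER derives from a hAT transposase, and RE2 is a copia-type retrotransposon.

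Chromatin was profiled by ChIP-seq in 8-day-old seedlings. The single-end series had 2 libraries per genotype and mark for the Landsberg erecta wild type (Ler), the loss-of-function alleles ult1-2 and ult1-3, and the gain-of-function line 35S::ULT1, in which a viral promoter active in most cells drives ULT1, all in Ler background. It also had the Columbia wild type (Col-0) and the loss-of-function mutant ref6-3 in Col-0 background. The paired-end series profiled H3K27me3 alone in plants grown in long days, with 1 peak list per genotype. Its genotypes were Col-0, the single mutants clf-28, swn-7 and ult1-3 (the last here in Col-0 background), and 2 double mutants, ult1-3 clf-28 and ult1-3 joined with swn-7. The paired-end values therefore have no error and no test. Libraries are numbered as in their lists, 1 and 3 in the Ler family and 1 and 2 for Col-0 and ref6-3. The 35S::ULT1 line carries its transgene in every library, and the labels do not say how many independent lines it stands for. Nothing in the labels says that libraries of 1 genotype came from separate batches of plants, so a p-value sets differences against the spread of these libraries alone, which may be technical. Whole seedlings mix cell types, so fewer cells with a mark and less of the mark per cell cannot be told apart.

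The measure was cover, the percent of a gene's length under peaks of a list. A gene was counted as marked by H3K27me3 at a cover of at least 50%, and by K4 at a cover of at least 500 bp or at least 50%, whichever was less. Single-end lists held 6382 to 9945 H3K27me3 peaks with 8.79 to 22.4 M reads inside them, and 15527 to 16510 K4 peaks with 16.5 to 22.5 M reads. Paired-end lists were shorter, at 3703 to 5987 peaks, and of unknown depth. As a check of the tissue, 5 of 5 photosynthesis genes were K4-marked in all 12 K4 lists. In turn 5 of 5 seed or flower genes were H3K27me3-marked in all 12 single-end H3K27me3 lists. The check was less clean in the paired-end lists. There H3K27me3 also marked the photosynthesis genes RBCS1A in 5 lists and CAB1 and LHCB2.1 in 1 each. The flower gene SHP1 was H3K27me3-marked in 16 of all 18 lists, and the flower gene AG was K4-marked in 1 list. All lists were made on the TAIR10 build, which is the Col-0 genome, and reads matching several copies of a repeat were treated in a way not given in the sources used here. Reads of near-identical copies may therefore be split between them or dropped, which is a limit on every value below.

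Most pseudogenes carried neither mark. No peak of either mark touched 3108 of the 3917 (79.3%) in any of the 30 lists, against 6.59% of protein-coding genes and 36.5% of transcribed pseudogenes. H3K27me3 marked 456 pseudogenes (11.6%) in at least 1 list and 98 (2.50%) in all 12 single-end lists, against 41.5% and 19.4% of protein-coding genes. K4 marked 147 (3.75%) in at least 1 list and 38 (0.970%) in all 12, against 68.1% and 57.4% of protein-coding genes. By these rules H3K27me3 was thus the commoner of the 2 marks for pseudogenes, and K4 for protein-coding genes. The rules ask for unlike covers, and the counts for at least 1 list rest on 18 H3K27me3 lists and 12 K4 lists.

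In Ler, H3K27me3 marked 4.98% ± 0.253 of pseudogenes (SD, n = 2), 33.9% ± 0.687 of transcribed pseudogenes and 26.7% ± 0.281 of protein-coding genes weighted to the same length distribution. In Col-0 the shares were 4.95% ± 0.217, 34.7% ± 1.37 and 24.9% ± 0.0361. K4 marked 1.94% ± 0.108 of pseudogenes in Ler, against 58.1% ± 1.46 of protein-coding genes of like length and 9.29% ± 0.458 of transcribed pseudogenes. In Col-0 it marked 2.39% ± 0.0181 of pseudogenes and 58.8% ± 0.598 of protein-coding genes. The gap between pseudogenes and protein-coding genes exceeded the spread between libraries in both accessions and for both marks.

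Across the single-end genotypes the share of pseudogenes marked by H3K27me3 stayed between 4.52% and 5.64% in single libraries. The mean was 5.25% ± 0.0181 for ref6-3, 4.63% ± 0.162 for 35S::ULT1, 5.48% ± 0.235 for ult1-2 and 5.31% ± 0.433 for ult1-3 (n = 2 each). Protein-coding genes of like length stood at 25.8% ± 0.976 in ult1-2 and 25.9% ± 1.46 in ult1-3, but at 31.6% ± 0.309 in 35S::ULT1 and 29.0% ± 1.06 in ref6-3. In 35S::ULT1 the share of marked protein-coding genes was thus above that of Ler in both libraries, and that of marked pseudogenes below both Ler libraries (4.75% and 4.52%, against 5.16% and 4.80%). For K4 the shares were 2.43% ± 0.0361 for ref6-3, 2.09% ± 0.0361 for 35S::ULT1, 2.07% ± 0 for ult1-2 and 1.90% ± 0.343 for ult1-3.

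**Figure D1:**
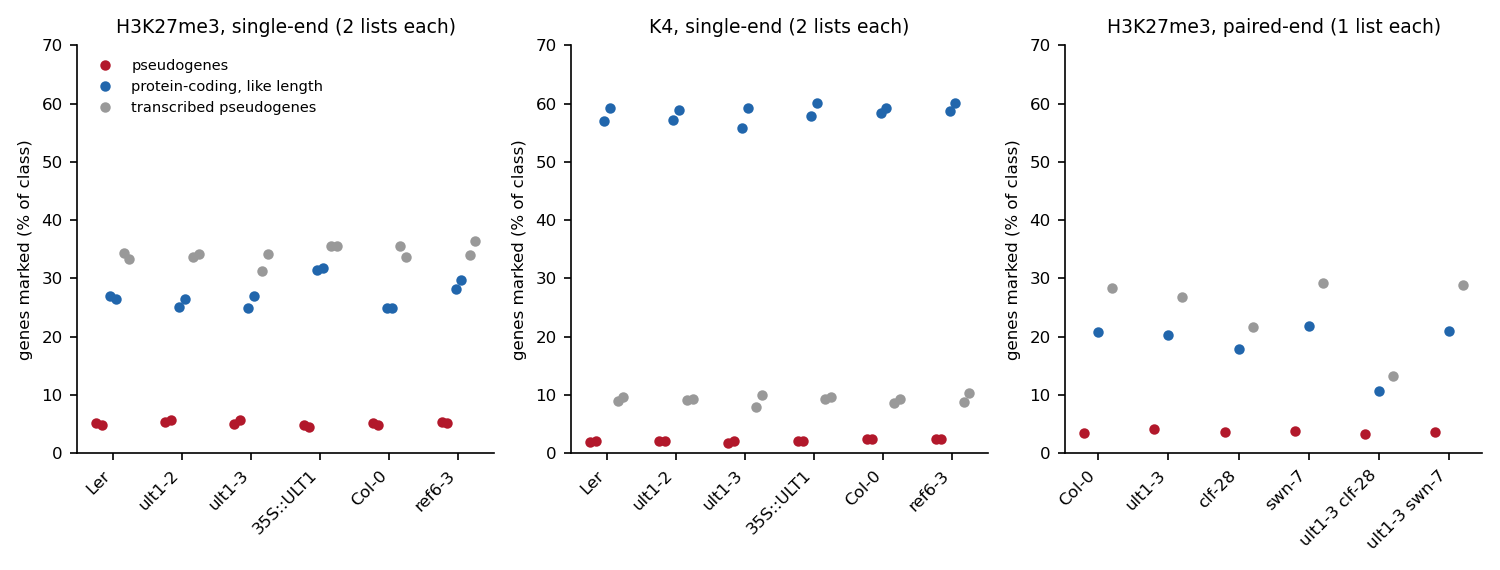
Percent of genes marked (y axis) in each genotype (x axis) for pseudogenes (red), protein-coding genes weighted to the pseudogenes' lengths (blue) and transcribed pseudogenes (grey), with 1 point per peak list. Pseudogenes lie between 4.52% and 5.64% for single-end H3K27me3, between 1.66% and 2.45% for K4 and between 3.32% and 4.19% in the paired-end lists, and in every list below both other classes.

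The share of marked pseudogenes differed with their place on the chromosome. In 31 of the 240 windows of 500 kb along the chromosomes pseudogenes outnumber protein-coding genes. These windows hold 2393 pseudogenes (61.1%) and 688 protein-coding genes (2.51%). In single-end lists H3K27me3 marked 0.418% to 0.752% of the pseudogenes there (10 to 18 genes), while it marked 12.4% to 18.0% of the protein-coding genes of the same windows. Among the 1524 pseudogenes outside these windows it marked 10.8% to 13.5%, against 24.5% to 31.6% of protein-coding genes. Pseudogenes thus carried the mark less often than protein-coding genes in both kinds of window in each of the 12 lists.

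Many marked pseudogenes sat in a peak that also covered a marked protein-coding gene. This held for 53.2% to 64.9% of H3K27me3-marked pseudogenes in single-end lists, and for at most 33.3% of those marked by K4. Short pseudogenes were marked most often. In Ler H3K27me3 marked 14.7% of pseudogenes of up to 300 bp, 9.55% of those of 601 to 1000 bp and 1.53% of those of 2001 to 3000 bp. The protein-coding genes of these length classes were marked at 26.0%, 47.1% and 18.9%. K4 marked 1.00% to 4.00% of pseudogenes in every length class in Ler, while among protein-coding genes its share went from 12.2% at 301 to 600 bp to 92.2% above 6000 bp.

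Few pseudogenes carried both marks. Of the 180 pseudogenes marked by H3K27me3 in both Ler libraries, 14 (7.78%) were also marked by K4 in both, against 17.2% of the protein-coding genes so marked. In Col-0 they were 11 of 177 (6.21%), against 15.8%. Of the 63 pseudogenes marked by K4 in both Ler libraries, 22.2% were also marked by H3K27me3, against 7.19% of protein-coding genes so marked. In Col-0 the shares were 12.2% of 90 pseudogenes and 5.85%. Counted from K4, pseudogenes thus carried both marks more often than protein-coding genes, and counted from H3K27me3 less often. K4 itself marked 1.94% of all pseudogenes and 62.3% of all protein-coding genes in Ler (means of 2 libraries). In Col-0 it marked 2.39% and 63.0%. In both accessions the K4 share of H3K27me3-marked pseudogenes thus lay above that of all pseudogenes. For protein-coding genes it lay below that of all protein-coding genes. Of the 177 pseudogenes marked in both Col-0 single-end libraries, 120 (67.8%) were also marked in the paired-end Col-0 list, and these made 90.2% of the 133 pseudogenes of that list. For protein-coding genes the corresponding shares were 79.6% and 88.3%.

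Some long pseudogenes were covered in every genotype. H3K27me3 marked 30 pseudogenes in all 18 H3K27me3 lists, 3 of them in pseudogene-rich windows. The longest was AT5G28635 (chromosome 5, 10637834 to 10643194), in such a window, with a cover of 81.5% to 85.2% in the 8 Ler-family libraries and 100% in the 4 libraries of Col-0 and ref6-3. AT1G30180 (3329 bp), AT3G30727 (1841 bp) and AT3G20990 (1315 bp) were covered for 100% in all 18 lists. AT3G43825 (4482 bp) was at 100% in all 12 single-end lists and at 78.2% in the paired-end ult1-3 clf-28 list, the lowest of the 6.

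K4 marked 38 pseudogenes in all 12 K4 lists, 5 of them in pseudogene-rich windows. The longest, AT3G42052 (7144 bp), had a K4 cover of 14.0% to 19.6%, and AT5G55896 (5326 bp) one of 10.2% to 13.9%. K4 thus covered only a short stretch of these long pseudogenes. A few carried both marks. AT2G24660 (4104 bp; chromosome 2, 10488140 to 10492243) had an H3K27me3 cover of 79.0% to 100% in the single-end libraries and a K4 cover of 14.6% in both Col-0 libraries and 89.2% and 34.1% in Ler. AT3G20975 (4756 bp) had an H3K27me3 cover of 57.4% to 100% in the single-end libraries (49.0% in the paired-end ult1-3 clf-28 list) and a K4 cover of 29.9% to 46.8%. AT3G29156 (4725 bp) carried both in Col-0, at 62.1% for H3K27me3 and 29.6% for K4 in both libraries, and neither in any of the 8 Ler-family libraries of each mark.

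Several Sadhu elements were covered by K4 in 1 accession and not in the other. K4 covered SADHU2-1 for 100% in both libraries of Col-0 and of ref6-3, and for 0% in all 8 Ler-family libraries. In the other direction K4 covered SADHU3-2 (99.9%), SADHU5-2 (100%) and SADHU6-1 (93.8%) in all 8 Ler-family libraries and in none of Col-0 or ref6-3. SADHU7-1, SADHU4-1 and Sadhu4-2 were covered by K4 for 100% in all 12 libraries. SADHU3-1 carried both marks in 7 of 8 Ler-family libraries each, at 81.5% for H3K27me3 and 61.1% for K4, and neither in Col-0 or ref6-3. SADHU7-2, SADHU8-1 and SADHU9-1 carried neither mark in any list.

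SADHU5-1, SADHU10-1 and SADHU1-2 carried H3K27me3, and K4 in some libraries. SADHU5-1 (889 bp) was covered for 100% in all 12 single-end libraries and in the paired-end lists of Col-0, ult1-3, swn-7 and ult1-3 swn-7. Its cover was 89.0% in clf-28 and 21.5% in ult1-3 clf-28. K4 covered it for 66.5% to 89.0% in library 3 of all 4 Ler-family genotypes and for 0% in library 1 of each and in Col-0 and ref6-3. SADHU10-1 (945 bp) had 100% in 11 of the 12 single-end libraries, 36.5% in Col-0 library 1, and 44.8% in the paired-end ult1-3 clf-28 list against 100% in the other 5. Its K4 cover was 0% in 35S::ULT1 library 1 and 63.5% to 97.6% in the other 11 libraries. SADHU1-2 (chromosome 1, 10966907 to 10968878) had 96.0% to 100% in the 8 Ler-family libraries and 0% in the 4 libraries of Col-0 and ref6-3, and for K4 the order was turned round, with 65.6% in both Col-0 libraries and 0% in both of Ler. K4 covered it for 30.4% and 40.6% in ult1-2 and 30.4% in both libraries of ult1-3.

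At further Sadhu elements, too, both libraries of an ULT1 genotype lay outside those of Ler. These were picked by their values, and how often 2 libraries lie outside 2 others was not counted over all genes. SADHU1-1 had K4 covers of 76.2% and 76.2% in ult1-2 and 0% in the libraries of Ler, ult1-3 and 35S::ULT1, against 99.4% in both Col-0 libraries. Sadhu4-2 had H3K27me3 covers of 87.1% and 68.5% in Ler, 68.5% in each library of ult1-2 and 35S::ULT1, and 0% in both of ult1-3 (limma adjusted p = 0.490). SADHU4-1 had H3K27me3 covers of 80.4% and 66.1% in 35S::ULT1 and 0% in the other 10 single-end libraries. SADHU1-3 had 32.9% in both 35S::ULT1 libraries, below the 50% minimum, and 0% in the other 10. No limma test of a single Sadhu element passed.

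The MUG genes carried K4 over a minor part of their length, or nothing. MUG1 had a K4 cover of 25.0% to 30.4% over the 12 libraries, MUG4 33.4% in all, MUG5 19.8% to 30.0% and MUG6 21.3% to 28.2%. MUG2 and MUG8 carried neither mark in any list, and none of the 6 had an H3K27me3 peak. PMI15, named for plastid movement, had a K4 cover of 34.0% in all 12 libraries. EXT11, named as an extensin of the cell wall, had an H3K27me3 cover of 79.0% to 100% in the 12 single-end libraries and 0% in all 6 paired-end lists, so that the 2 series parted at this gene in the wild type too.

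**Figure D2:**
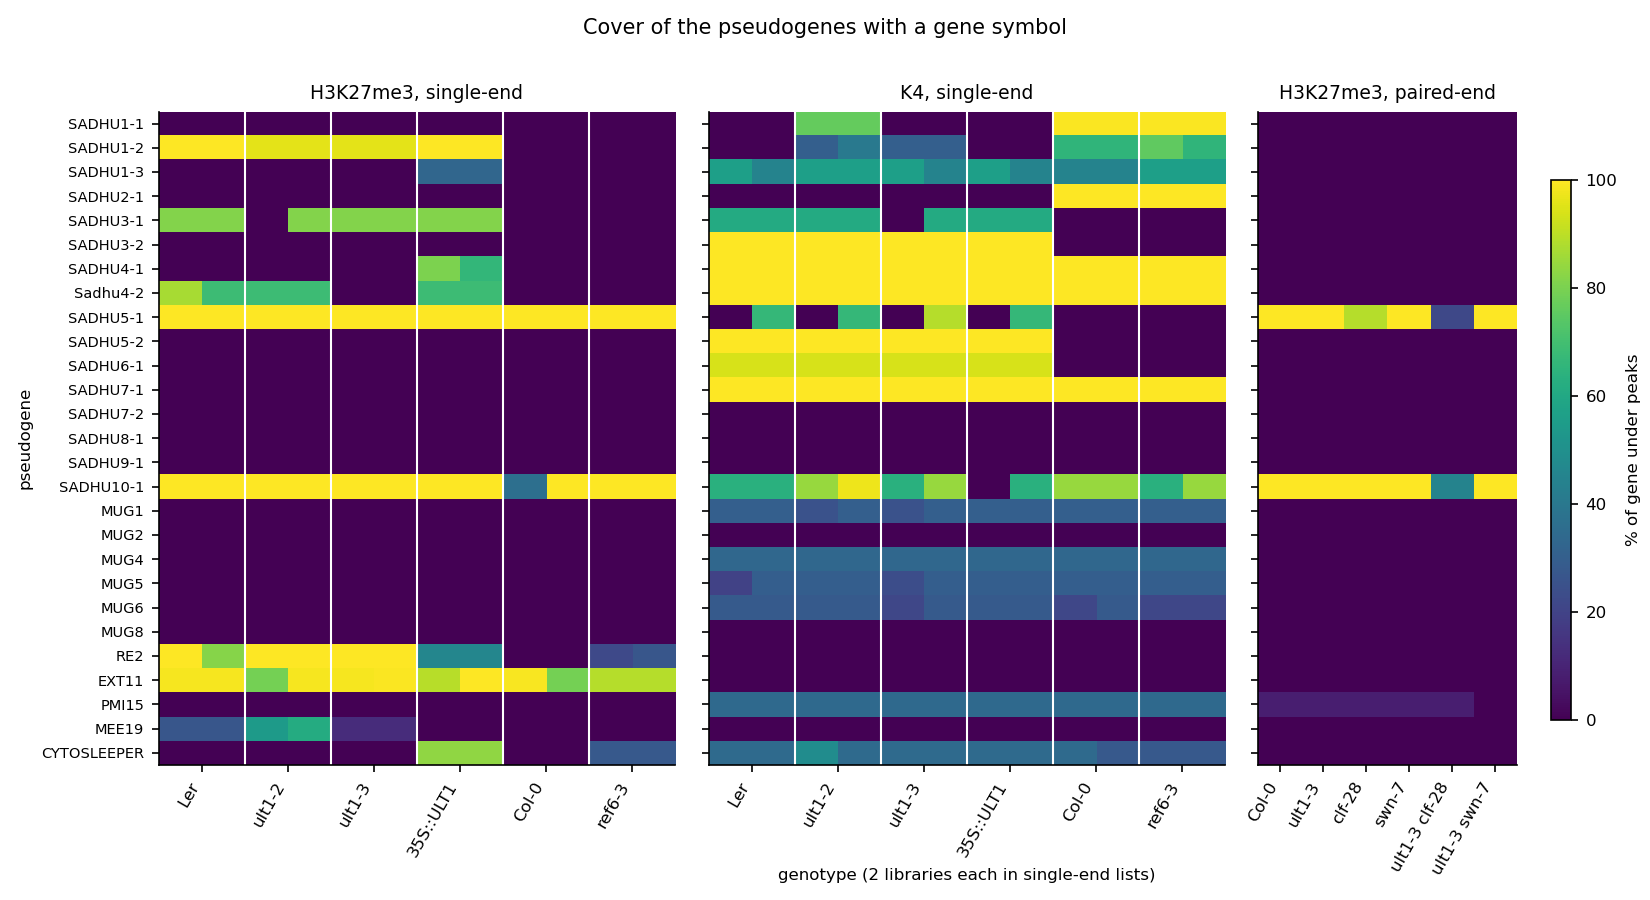
Percent of the gene under peaks (colour, 0 to 100) for the 27 pseudogenes with a symbol (rows), in single-end H3K27me3 and K4 libraries (2 columns per genotype) and in the 6 paired-end H3K27me3 lists. SADHU2-1 is covered by K4 in Col-0 and ref6-3 alone, SADHU3-2, SADHU5-2 and SADHU6-1 in the 4 Ler-family genotypes alone, and RE2 shows less H3K27me3 in 35S::ULT1 than in Ler.

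The wild types were then set side by side. Accession and library set change together here, and Ler reads were placed on the Col-0 genome, so these differences cannot be told apart from either, and no test was made. H3K27me3 marked 51 pseudogenes in both Col-0 libraries and neither Ler library, 1.38% of the 3707 unmarked in Ler (2.32% of all genes of any kind; 2.40% of protein-coding genes of like length). It marked 49 in both Ler libraries and neither of Col-0, 27.2% of the 180 marked in Ler (10.0% of all genes; 10.4% of protein-coding genes of like length). For K4, 40 pseudogenes were marked in Col-0 alone (1.04% of those that could be, against 2.91% of all genes) and 19 in Ler alone. Those 19 were 30.2% of the 63 K4-marked pseudogenes of Ler, against 1.78% of all genes. Of the marked pseudogenes, a larger share than of protein-coding genes was thus marked in Ler and not in Col-0.

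AT5G28145 (4655 bp; chromosome 5, 10129022 to 10133676) had an H3K27me3 cover of 100% in both Col-0 and both ref6-3 libraries and 0% in all 8 of the Ler family. AT3G31420 (4104 bp), in a pseudogene-rich window, had 100% in both Col-0 libraries and 0% in the Ler family. AT2G16140 (2912 bp; chromosome 2, 7005328 to 7008239) had the opposite order in single-end lists, with 100% in both libraries of Ler, ult1-2 and ult1-3 and 0% in Col-0. In the paired-end series it had 100% in clf-28, ult1-3 and ult1-3 swn-7, and 0% in Col-0, swn-7 and ult1-3 clf-28. For K4, AT2G11140 (1932 bp) and AT1G34842 (1187 bp) had 100% in both Col-0 libraries and 0% in both of Ler.

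Loss of ULT1 was compared with Ler to ask where H3K27me3 depends on it. A pseudogene was counted as gained when it was marked in both mutant libraries and in neither wild-type library, and as lost when the order was the opposite. The rule has no p-value. In ult1-2, 17 of 3707 pseudogenes were gained (0.459%) and 3 of 180 were lost (1.67%). Over all genes the shares were 0.52% and 2.65%, and over protein-coding genes of like length 0.564% and 2.89%. In ult1-3, 15 were gained (0.405%) and 6 lost (3.33%), with 0.429% and 2.5% over all genes and 0.463% and 2.29% over protein-coding genes of like length. By this rule the gained shares of pseudogenes were near those of all genes in both mutants, and the lost shares rest on 3 and 6 pseudogenes.

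AT3G44640 (1519 bp; chromosome 3, 16207540 to 16209058) had a cover of 100% in both libraries of ult1-2, of ult1-3 and of Col-0, and of 0% in both of Ler and both of 35S::ULT1. Its change had a limma adjusted p of 0.275 in ult1-2 and 0.220 in ult1-3. AT2G15330 (1098 bp) had 100% in both ult1-2 libraries and 0% in those of Ler, ult1-3 and 35S::ULT1, and shared its peak with the marked coding genes AT2G15325 and AT2G15327. AT3G25815 (3471 bp) had 100% in both ult1-3 libraries and 2.05% in both of Ler and of ult1-2 (change 98.0 percentage points, SE 4.07, limma adjusted p = 0.110), in a peak over the terpene synthase genes TPS-CIN. Both Col-0 libraries were high at AT3G44640, AT2G15330 and AT3G25815, so that the mutant libraries resembled Col-0 at these genes more than their own wild type.

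Not all gains were of this kind. AT3G28400 (2028 bp) had 31.0% in both Ler libraries, 100% in both libraries of ult1-2 and of ult1-3, 0% in 35S::ULT1 and 4.09% and 0% in Col-0. It lies in a peak with the marked transporter gene ABCB18. AT3G28800 (1061 bp) had 70.5% and 100% in ult1-2 and the same in ult1-3, and 0% in all other single-end libraries. MEE19, named for maternal effect embryo arrest, had 54.4% and 61.3% in ult1-2, 26.6% in both Ler libraries, 12.7% in both of ult1-3 and 0% in 35S::ULT1. At these genes both ult1-2 libraries stood above those of both wild types.

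Among the losses, AT2G26630 (1235 bp) had 100% in both Ler libraries and 0% and 26.5% in ult1-3, and Sadhu4-2 is given above. AT3G31023 (3297 bp), in a pseudogene-rich window, had 68.3% in both Ler libraries, 44.1% in both of ult1-2, at most 44.1% in both of ult1-3 and 100% in both of 35S::ULT1. AT1G33813 (1404 bp) lay close to the 50% minimum, with 60.3% in both Ler libraries and 46.0% in both of each mutant.

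Tested gene by gene with limma on the cover of the 8 Ler-family libraries, 0 of 476 pseudogenes passed an adjusted p of 0.05 in ult1-2 and 0 in ult1-3, where 0.007% of all genes passed as higher and 0.007% as lower in ult1-2, and 0.0% and 0.007% in ult1-3. With an unadjusted p below 0.05 were 35 pseudogenes in ult1-2 (7.35%, against 3.43% of all genes), 30 of them higher, and 39 in ult1-3 (8.19%, against 3.12%), 24 higher. The mean change in cover was 4.82 percentage points over the pseudogenes tested and -1.93 over all genes in ult1-2, and 3.02 and -1.98 in ult1-3, with every median at 0. Without the floor on the variance limma called 27 and 29. A single library moved these counts: leaving out Ler library 1 gave 30 gained pseudogenes in ult1-2 and 24 in ult1-3, and without ult1-3 library 1 the gained count of ult1-3 was 27. The lost count of ult1-2 was 9 without its library 3, 7 without Ler library 1 and 8 without Ler library 3, and that of ult1-3 was 11 without its library 3, 11 without Ler library 1 and 10 without Ler library 3.

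In 35S::ULT1, where protein-coding genes gained H3K27me3 widely, pseudogenes lost it more often than they gained it. Gained were 19 of 3707 (0.513%), against 5.12% of all genes and 6.52% of protein-coding genes of like length. Lost were 24 of 180 (13.3%), against 1.59% of all genes and 1.41% of protein-coding genes of like length, and 5.26% of transcribed pseudogenes. Among pseudogenes of at least 1000 bp, 10 of 81 (12.3%) were lost, against 0.717% of protein-coding genes of at least that length. The lost pseudogenes made 17.3% of all 139 genes lost in 35S::ULT1, and the gained ones 1.29% of all 1469 gained.

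CYTOSLEEPER (2877 bp; chromosome 1, 5265726 to 5268602) gained the mark, from a cover of 0% in both Ler libraries to 83.4% in both of 35S::ULT1 (SE of the change 4.92 percentage points, limma adjusted p = 0.0303). It also had 0% in ult1-2, ult1-3 and Col-0 and 27.8% in both ref6-3 libraries, and kept a K4 cover of 34.8% in both libraries of Ler and of 35S::ULT1. AT3G28705 (5297 bp; chromosome 3, 10767373 to 10772669) rose from 0% in both Ler libraries to 75.5% and 79.3% (SE 2.67, limma adjusted p = 0.0303). AT1G29360 (1769 bp) rose from 0% to 80.4% and 91.7%, and AT5G13485 (1737 bp) from 16.3% and 0% to 85.4% and 85.4% (limma adjusted p = 0.0303 and 0.0327). The 4 were chosen for their rise over Ler, so standing apart from Ler is part of the choice. Nor did the 35S::ULT1 libraries overlap there with those of ult1-2 or ult1-3, a pattern not counted over all genes.

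Shorter pseudogenes with the K4 mark were among the gains as well. AT1G21260 (762 bp) and AT3G44420 (548 bp) had an H3K27me3 cover of 0% in both Ler libraries and 100% in both of 35S::ULT1, and a K4 cover of 100% in both libraries of each. Their limma adjusted p was 0.0672 and 0.133. AT4G32205 (665 bp) had the same values (limma adjusted p = 0.0897), in a peak over the marked coding gene SDH3-2. At these genes and at SADHU4-1 the mark thus lay on pseudogenes that held K4 in every Ler-family genotype. How many of all gained pseudogenes held K4 was not counted. AT1G21260 also had H3K27me3 covers of 24.0% and 100% in Col-0 and 100% in both ref6-3 libraries.

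On the losing side stood RE2 (4437 bp; chromosome 4, 1312547 to 1316983). Its cover was 100% and 82.0% in Ler, 100% in both libraries of ult1-2 and of ult1-3, and 45.9% in both of 35S::ULT1 (change -45.1 percentage points, SE 6.32, limma adjusted p = 0.0427). Col-0 had 0% in both libraries and all 6 paired-end lists had 0%. AT1G33855 (1244 bp) and AT2G16832 (1059 bp) fell from 100% in both libraries of Ler to 0% in both of 35S::ULT1 (limma adjusted p = 0.0330 and 0.0417). AT3G43100 (1280 bp), in a pseudogene-rich window, fell from 100% in both to 0% and 13.3% (limma adjusted p = 0.0332), and AT5G13205 (4071 bp) from 50.9% in both to 0% in both (limma adjusted p = 0.0303). The 5 were chosen for their fall against Ler, so that difference is part of the choice. The ult1-2 and ult1-3 libraries were as high as those of Ler or higher at all 5, a pattern not counted over all genes.

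Pseudogenes of exactly 4059 bp were singled out after their values were seen. Of the 5 of that length, AT1G11265, AT1G48710 and AT3G61330 were covered for 45.8% to 50.7% in the Ler libraries and for 0% to 12.1% in those of 35S::ULT1 (limma adjusted p = 0.0427, 0.0303 and 0.0303). In ult1-2 and ult1-3 they had 55.7% to 70.4%. In single-end Col-0 they had 50.7%, 50.7% and 45.8% in library 1 and 45.8%, 45.8% and 31.0% in library 2. In the paired-end series their cover was 0%, 0% and 16.0% in Col-0, and 100%, 100% and 85.2% in ult1-3 clf-28. The 2 series thus parted at these pseudogenes in the wild type too. The other paired-end lists set them apart, at 0%, 0% and 75.2% in ult1-3, 0%, 0% and 10.1% in clf-28, 0%, 0% and 40.7% in swn-7, and 22.0%, 100% and 11.1% in ult1-3 swn-7. In ref6-3 library 1 each had 85.2% and in library 2 they had 40.9%, 45.8% and 26.1%. AT1G47360, of the same length, was covered for at most 18.0% in single-end lists and for 50.7% in the paired-end ult1-3 list, and AT3G30211 for 0% in all, so 2 of the 5 did not share the pattern. Whether these are near-identical copies that share reads was not tested.

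With limma 21 of the 476 pseudogenes tested passed in 35S::ULT1, 9 higher and 12 lower. Over all genes 4.76% passed as higher and 0.315% as lower, in a total of 14285, and the mean change in cover was 11.4 percentage points over all genes and -3.80 over pseudogenes (both medians 0). These calls are not firm: 0 remained when any 1 of the 8 libraries was left out and 0 with the library number as a block, while 16 passed with equal numbers of peaks (4 higher, 12 lower). Without Ler library 3 the lost count of the rule was 41. With equal numbers of peaks 12 pseudogenes were gained and 27 lost.

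**Figure D3:**
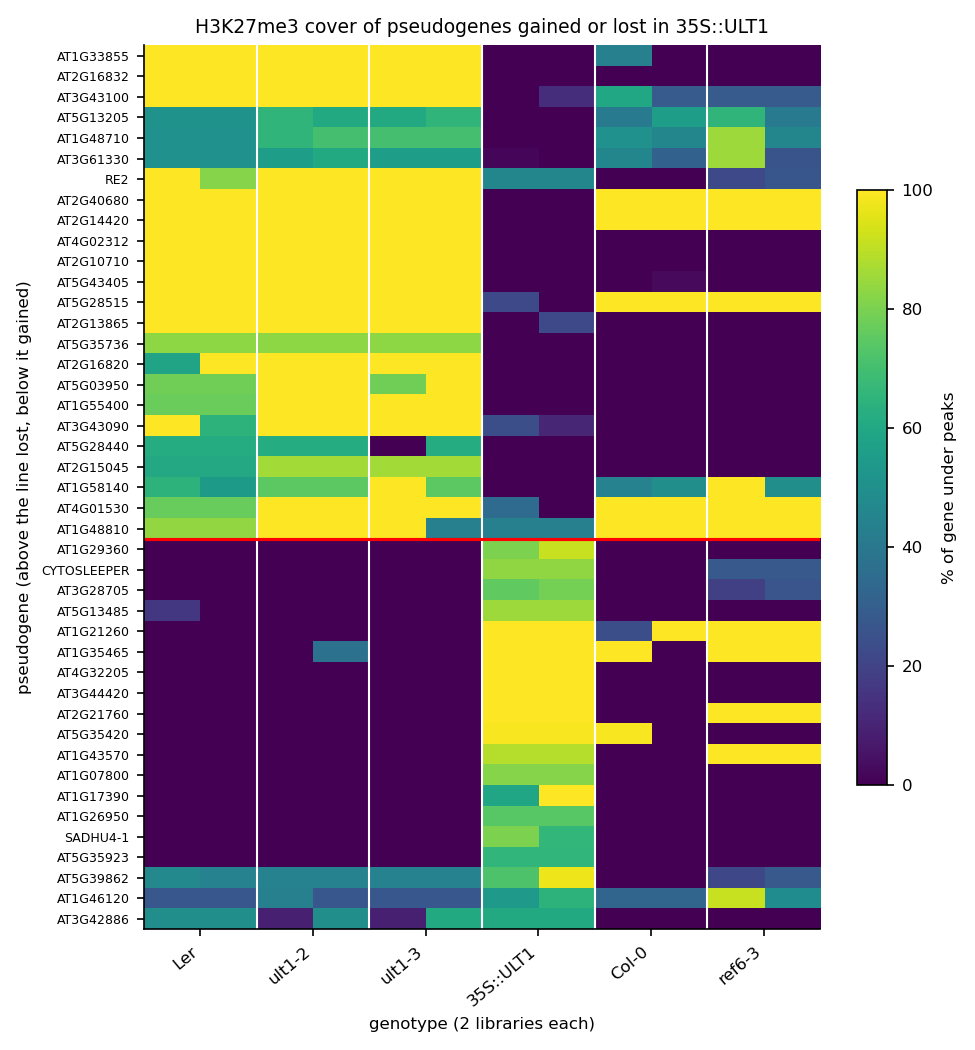
H3K27me3 cover (colour, percent of the gene under peaks) of the 24 pseudogenes lost (above the red line) and the 19 gained (below it) in 35S::ULT1 against Ler, in the 12 single-end libraries (2 columns per genotype). The lost pseudogenes are covered in Ler, ult1-2 and ult1-3 alike, as is RE2 (82.0% to 100%, against 45.9% in 35S::ULT1), and several of them lack the mark in Col-0 too.

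Loss of REF6 was compared with Col-0, the question being where the demethylase holds H3K27me3 down. In ref6-3, 23 of 3706 pseudogenes were gained (0.621%), against 5.48% of all genes and 6.61% of protein-coding genes of like length. Lost were 6 of 177 (3.39%), against 3.59% of all genes and 4.17% of protein-coding genes of like length. Pseudogenes were gained at a low share in both kinds of window, with 6 gains among the 2380 unmarked ones in pseudogene-rich windows (0.252%, against 1.85% of the protein-coding genes there) and 17 of 1326 elsewhere (1.28%).

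AT1G43570 (1047 bp; chromosome 1, 16401870 to 16402916), in a pseudogene-rich window, had a cover of 0% in both Col-0 libraries and 100% in both of ref6-3, and of 88.9% in both of 35S::ULT1. AT1G51750 (1956 bp) had 0% and 17.8% in Col-0 and 99.6% in both of ref6-3 (SE of the change 8.77, limma adjusted p = 0.165), and AT3G32925 (1652 bp) 0% in both and 100% and 86.7% (SE 8.56, limma adjusted p = 0.164). AT1G21220 (819 bp) had 0% in Col-0 and 100% in both ref6-3 libraries, in a peak with WAK4, a wall-associated kinase gene, and its K4 cover was 40.3% in both Col-0 libraries and 0% in both of ref6-3. AT5G56830 (729 bp) had 0% in Col-0 and 100% in ref6-3 in a peak of 10.4 kb with 5 marked coding genes, the metallothionein gene MT1B among them.

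Losses were few. AT2G19803 (534 bp) had 100% in both Col-0 libraries and in all 8 of the Ler family, and 0% in both of ref6-3. AT3G43828 (627 bp) had 100% in both Col-0 libraries and 1.44% in both of ref6-3. In the 4 libraries of Col-0 and ref6-3, limma called 0 of 363 pseudogenes and 0.0% of the 12791 genes in either direction, with 41 pseudogenes (11.3%, against 15.1% of all genes) at an unadjusted p under 0.05, 34 of them higher. This fit has few libraries: with the floor applied before shrinkage it called 13 pseudogenes, 12 higher, and without the floor 48. The lost count was 10 without ref6-3 library 1, 16 without ref6-3 library 2 and 21 without Col-0 library 2.

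K4 was gained or lost on few pseudogenes in the ULT1 genotypes and ref6-3. In ult1-2, 7 of 3828 pseudogenes were gained (0.183%, against 0.295% of all genes) and 2 of 63 lost (3.17%, against 0.299%). In ult1-3 the counts were also 7 and 2, where 0.445% of all genes were gained and 0.521% lost. In 35S::ULT1 1 was gained and 0 lost (0.413% and 0.133% of all genes), and in ref6-3 3 of 3820 were gained (0.0785%, against 0.813%) and 2 of 90 lost (2.22%, against 0.403%). The lost shares were thus above those of all genes in 3 of the 4 genotypes, on 2 pseudogenes each. With limma 0 of 146 pseudogenes passed in each Ler-family genotype and 0 of 138 in ref6-3, and 0.0% of all genes passed in any of the 4. At an unadjusted p under 0.05 there were 10 pseudogenes in ult1-2 (6.85%, against 0.442% of all genes), 6 in ult1-3 (4.11%, against 0.851%), 1 in 35S::ULT1 (0.685%, against 0.514%) and 4 in ref6-3 (2.90%, against 0.739%). Without the floor limma called 7, 4, 1 and 15 in that order.

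Among the K4 gains, AT1G27285 (4320 bp; chromosome 1, 9476197 to 9480516) had a cover in ult1-3 of 62.9% in both libraries against 0% in both of Ler, ult1-2 and 35S::ULT1 (SE of the change 3.27, limma adjusted p = 0.421). Both Col-0 libraries were high too, at 50.9% and 62.9%. AT1G10160 (4500 bp) had 49.6% and 67.3% in ult1-3, 17.8% in both of ult1-2, 0% in both of Ler and 76.2% in both of Col-0. AT2G13975 (717 bp) had 83.7% in both ult1-2 libraries, 0% in the other 6 of the Ler family and 100% in Col-0. As at SADHU1-1, values in 1 mutant were nearer to Col-0 than to Ler at these genes. The K4 losses included AT1G21220, with 100% and 64.7% in Ler and 0% in both of ult1-2.

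Others did not follow Col-0. AT3G21030 (1236 bp) and AT3G21040 (1605 bp), which H3K27me3 covered for 100% in all 12 single-end libraries, had K4 covers of 51.2% and 39.9% in both ult1-3 libraries and 0% in both of Ler and both of Col-0. In ref6-3, AT5G35777 (4575 bp) had a K4 cover of 0% in both libraries against 21.3% and 25.6% in Col-0, and an H3K27me3 cover of 100% in both against 47.5% and 35.0%. At AT1G51750, the only pseudogene gained in 35S::ULT1, K4 covered 58.7% and 28.1% there and 0% in all other libraries. Leaving out 1 library moved several of these small counts: the K4 gained count of 35S::ULT1 ran from 2 to 10 with 1 library left out, that of ult1-2 was 12 without its library 3 and 11 without Ler library 3, and that of ref6-3 was 5 without Col-0 library 2. The K4 lost count of ult1-2 was 4 to 7 with any 1 of the 4 libraries left out, and that of 35S::ULT1 was 1 to 3. In ult1-3 the lost count was 8 without its library 3, 5 without Ler library 1 and 11 without Ler library 3, and in ref6-3 it was 4 without Col-0 library 2. The count marked in Ler and not in Col-0 was 29 without Ler library 3.

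**Figure D4:**
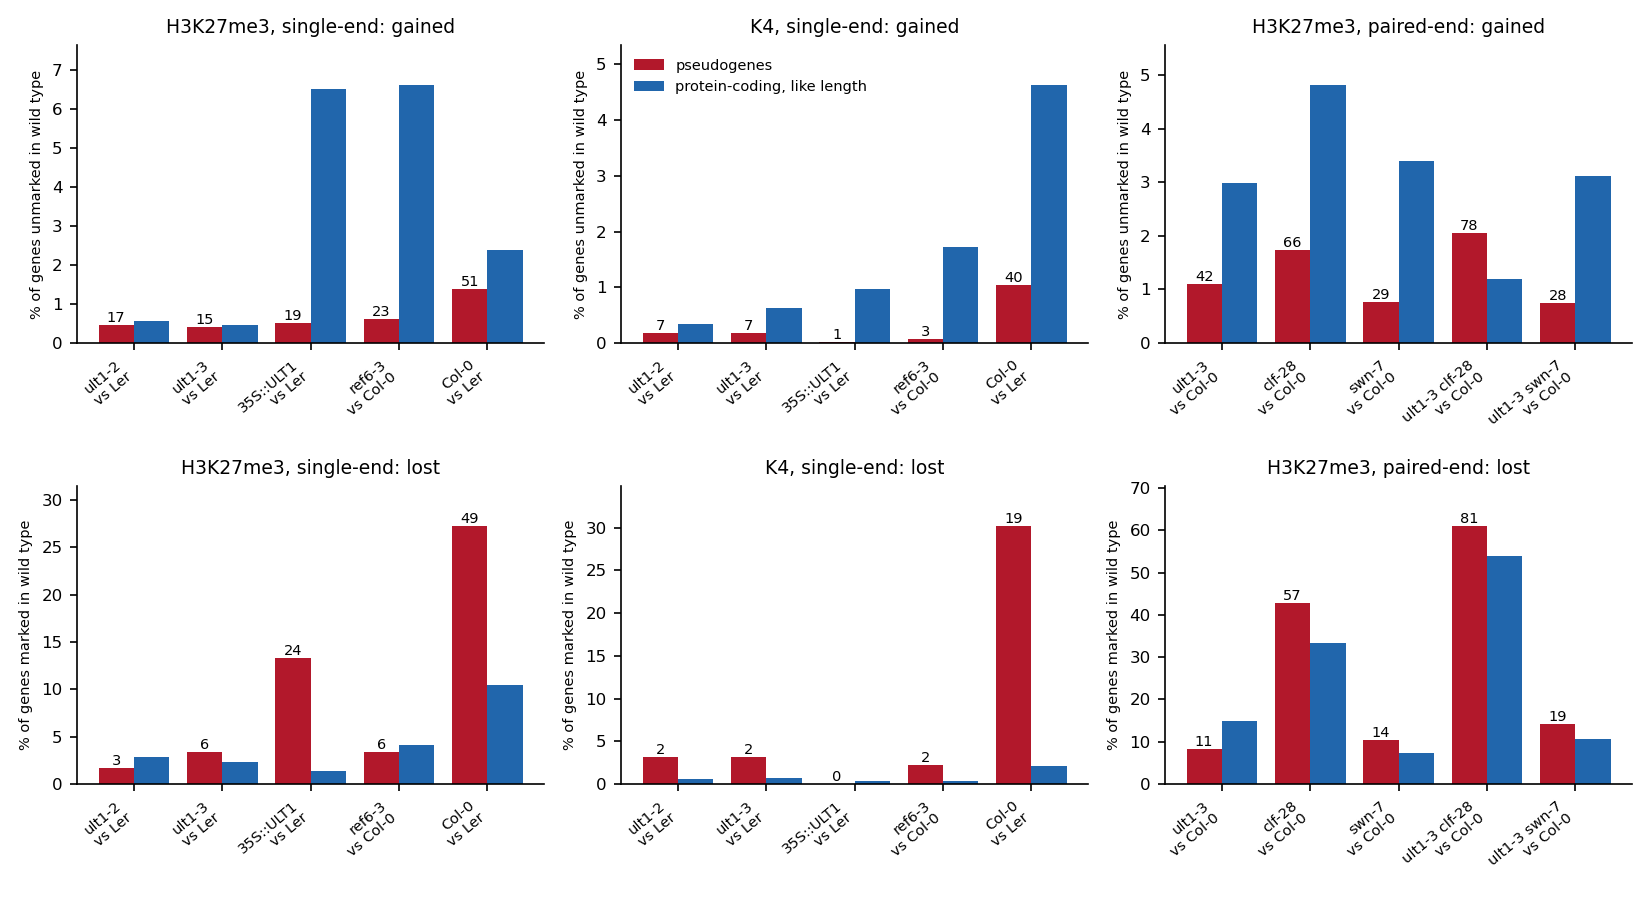
Share of pseudogenes (red) and of protein-coding genes of like length (blue) gained (top row, percent of genes unmarked in the wild type) or lost (bottom row, percent of genes marked in the wild type) in each comparison, with the number of pseudogenes above each red bar. Among other pairs, the red bar is the higher for H3K27me3 losses in 35S::ULT1 (13.3% against 1.41%), for H3K27me3 losses of Col-0 against Ler (27.2% against 10.4%), and for gains in ult1-3 clf-28 (2.06% against 1.19%).

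The paired-end series asked what loss of ULT1 and of either PRC2 methyltransferase does, alone and together. In Col-0, 133 pseudogenes were marked (3.40%; 20.9% of protein-coding genes of like length). The single mutants had 148 (swn-7, 3.78%), 142 (clf-28, 3.63%) and 164 (ult1-3, 4.19%), and the double mutants 130 (ult1-3 clf-28, 3.32%) and 142 (ult1-3 swn-7, 3.63%). Protein-coding genes of like length stood, in that order, at 21.8%, 17.9%, 20.2%, 10.7% and 20.9%. In ult1-3 clf-28 the marked share of coding genes was thus the lowest of the 6 lists, while the count of marked pseudogenes lay 3 below that of Col-0.

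That count held losses and gains of nearly equal number. Against Col-0, ult1-3 clf-28 lost 81 of 133 (60.9%; 52.6% of all genes, 53.9% of protein-coding genes of like length) and gained 78 of 3784 (2.06%; 2.18% of all genes, 1.19% of protein-coding genes of like length). In clf-28, 57 were lost (42.9%; 32.3% of all genes) and 66 gained (1.74%; 4.62% of all genes, 4.81% of protein-coding genes of like length). The ult1-3 list lost 11 (8.27%, against 14.4% of all genes) and gained 42 (1.11%, against 2.77%). In swn-7 14 were lost (10.5%, against 8.34% of all genes) and 29 gained (0.766%, against 2.98%). In ult1-3 swn-7 19 were lost (14.3%, against 11.4%) and 28 gained (0.740%, against 2.8%). All 5 comparisons share the 1 Col-0 list. Only in ult1-3 clf-28 was the gained share of pseudogenes above that of protein-coding genes of like length, a difference with no test.

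Pseudogene-rich windows held part of the gains of ult1-3 clf-28 and clf-28. Of the 78 gained in ult1-3 clf-28, 34 were in such windows, as were 20 of 66 in clf-28, 4 of 42 in ult1-3, 3 of 29 in swn-7 and 2 of 28 in ult1-3 swn-7. These windows hold 2387 of the 3784 pseudogenes that could be gained, so the gained share was lower there than elsewhere in each mutant. In ult1-3 clf-28 it was 1.42% there and 3.15% in other windows, in clf-28 0.838% and 3.29%, and in the other 3 mutants at most 0.168% there and 1.86% to 2.72% elsewhere. In all, 38 pseudogenes of these windows were marked in ult1-3 clf-28 and 26 in clf-28, against 6 in Col-0, 10 in ult1-3, 9 in swn-7 and 8 in ult1-3 swn-7. Protein-coding genes of the same windows went the other way, with 4.80% marked in ult1-3 clf-28 and 6.83% in Col-0. The window with the most gains, from 11500001 to 12000000 on chromosome 5, holds 72 pseudogenes and 6 protein-coding genes, and 14 of its pseudogenes were gained in ult1-3 clf-28 and 9 in clf-28.

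By chromosome the gains of ult1-3 clf-28 numbered 26, 12, 13, 0 and 27 on chromosomes 1 to 5. Chromosome 4 had none among its 714 pseudogenes, although the list held 486 peaks there and 32 protein-coding genes of that chromosome were gained. In clf-28 the counts were 17, 8, 19, 4 and 18.

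**Figure D5:**
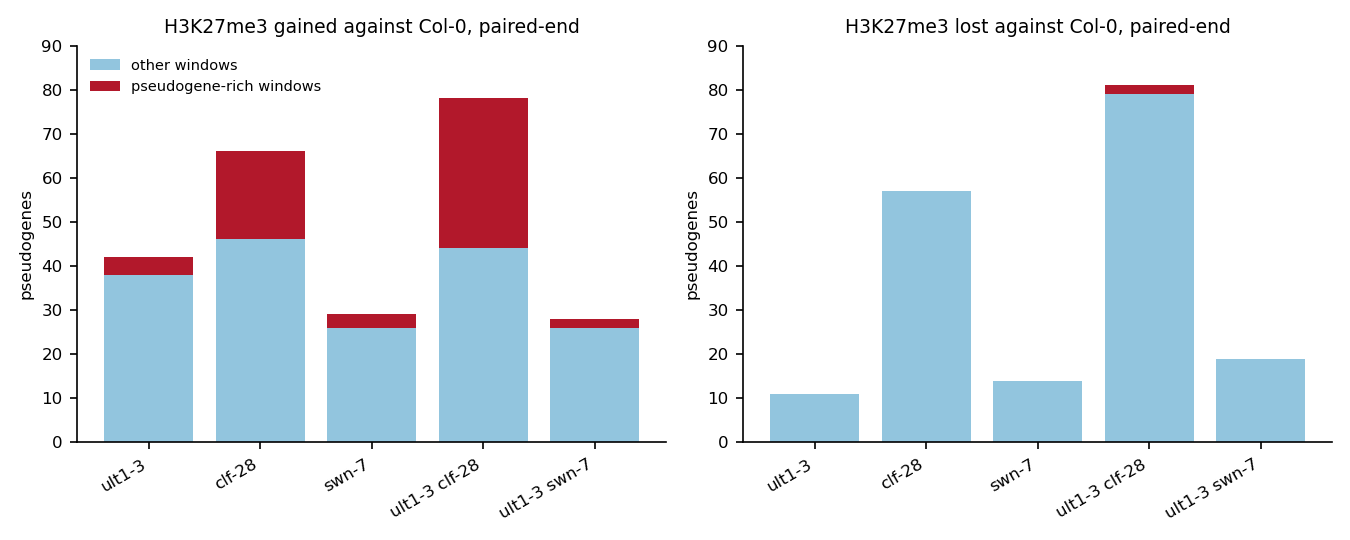
Number of pseudogenes gained (left) and lost (right) against the paired-end Col-0 list in each mutant (x axis), split into pseudogene-rich windows of 500 kb (red) and other windows (light blue), from 1 list per genotype. The red part is 34 of 78 gains in ult1-3 clf-28 and 20 of 66 in clf-28, and at most 4 in the other 3 mutants.

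New peaks stood behind most of these gains. Cover in Col-0 was 0% for 76 of the 78 pseudogenes gained in ult1-3 clf-28, which lay in 66 separate peaks, and only 9 shared their peak with a marked protein-coding gene. In ult1-3 24 of 42 gained pseudogenes and in ult1-3 swn-7 17 of 28 shared a peak in this way. Of the peaks of ult1-3 clf-28 that touched no Col-0 peak, 111 of 623 (17.8%) touched a pseudogene, against 72 of 1240 (5.81%) in clf-28, 25 of 551 (4.54%) in ult1-3, 18 of 732 (2.46%) in swn-7 and 13 of 628 (2.07%) in ult1-3 swn-7. The score that the authors give each peak, whose unit is not stated, had a median of 537 over these 111 peaks and of 590 over all peaks of that list. That list had the fewest peaks and the lowest median score of the 6. Over all peaks the median was 691 in clf-28, 957 in ult1-3, 1169 in Col-0, 1450 in swn-7 and 1627 in ult1-3 swn-7. Whether scores compare between lists is not stated.

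Several long pseudogenes were covered from end to end. AT5G31804 (6381 bp; chromosome 5, 11715184 to 11721564) and AT1G40095 (6240 bp; chromosome 1, 15044573 to 15050812), both in pseudogene-rich windows, had a cover of 100% in ult1-3 clf-28 and 0% in the other 5 lists and in all 24 single-end lists of both marks. AT5G29975 (5904 bp) and AT5G34985 (5637 bp) had 100% in clf-28 and in ult1-3 clf-28 and 0% in the other 4 paired-end lists and in all single-end lists. AT5G31719 (2961 bp) had the same pattern. AT2G01034 (4924 bp), near the end of chromosome 2, had 100% in ult1-3 clf-28 and 0% in the other 5, and in single-end lists 80.2% and 0% in Ler and 100% in both of ult1-2.

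AT1G58889 (4569 bp) was gained in clf-28 but not in ult1-3 clf-28, with covers of 100% and 1.36%, and 28.6% in ult1-3. Counted over the 6 lists, 51 pseudogenes were marked in ult1-3 clf-28 alone, 21 of them in pseudogene-rich windows, 34 in clf-28 alone and 20 in both of these and no other list. Pseudogenes made 14.5% of all 351 genes marked in ult1-3 clf-28 alone, 12.4% of the 161 marked in it and clf-28 alone, and 3.97% of the 857 marked in clf-28 alone. By comparison they made 1.24% of the 3060 genes marked in all 6 lists, where they were 38. These shares are to be read against the 3917 pseudogenes among all 37899 nuclear genes, marked or not.

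Losses were most frequent in the genotypes with clf-28. AT1G28323 (3331 bp; chromosome 1, 9928401 to 9931731) had 100% in all 12 single-end libraries and in the paired-end lists of Col-0, ult1-3, swn-7 and ult1-3 swn-7, and 0% in clf-28 and ult1-3 clf-28. AT4G01530 (1695 bp), in the peak of the transcription factor gene NAC067, had the same paired-end pattern. AT3G31420 (4104 bp) had 97.9% in clf-28 and 0% in ult1-3 clf-28, and at least 85.4% in the other 4 lists. AT5G38230 (2441 bp) had 32.8% in clf-28, 0% in ult1-3 clf-28 and 100% in the other 4. In all, 33 pseudogenes were marked in Col-0, ult1-3, swn-7 and ult1-3 swn-7 alone, and 30 in every list but ult1-3 clf-28. They made 2.37% of the 1394 genes of any kind with the first pattern and 2.57% of the 1168 with the second. Of the 81 pseudogenes lost in ult1-3 clf-28, 55 had shared a peak with a marked protein-coding gene in Col-0.

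Fewer pseudogenes differed in swn-7 and in ult1-3 swn-7. AT3G27886 (889 bp) had 100% in both and 0% in the other 4 paired-end lists, Col-0 included, though its single-end cover was 80.3% to 100% in all 12 libraries. AT1G48810 (991 bp) had 0% in Col-0 and clf-28, 76.6% in ult1-3 and 100% in swn-7 and in both double mutants. AT2G19803 had 64.4% in Col-0 and 0% in all 5 mutants. In ult1-3, the gains AT5G39155 (4493 bp) and AT5G39185 (4478 bp) had 100% there and in ult1-3 clf-28 and 0% in the other 4, inside a peak of 31.2 kb in the ult1-3 list that also covered 8 marked coding genes. AT2G14280 (776 bp) was lost in ult1-3, clf-28 and ult1-3 clf-28, at 0% against 99.9% in Col-0 and 100% in swn-7 and ult1-3 swn-7. With 1 list a genotype, none of these differences can be set against a spread between libraries.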

How the data were processed

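ChIP-seq of 8-day-old seedlings gave 60 libraries, 36 of ChIP and 24 of input. Per the submitters' processing notes, SICER 1.1 and build TAIR10 served both series. For the single-end series the notes also name bedtools 2.17.0-97, Picard 1.93, BWA 0.6.2-r126, CASAVA 1.8.2 and SAMtools 0.1.19, and for the paired-end series bedtools 2.30.0, Picard 2.26.10, BWA 0.7.17-r1188 and SAMtools 1.16.1. The deposited single-end lists give, per the file headers, each peak's ChIP read count, its fold over input (a ratio) and its q-value, at most 9.99e-05 in any list. The deposited paired-end lists give a score per peak, of unstated unit, and how the 2 libraries of a genotype were combined was not given in the sources used here. Per the labels' protocols, ChIP reactions on 1 nuclear extract were pooled.

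Peak edges lie on windows of 200 bp, which limits the precision of cover. Cover was computed with Python 3.11.15 and pandas 2.3.3 from peak positions and gene spans. The labels' antibody tag for the K4 libraries reads H4K4me3 and their titles K4. The 2 K4 lists named R3 for Ler and ult1-2 match no title and were placed by genotype only. A further 50 per-sample columns (24 of input read counts, 24 of p-values and 2 of fold) were not used.

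Cover was tested with limma 3.58.1 (R 4.3.3), with a trended robust prior, a posterior variance of at least 1 window, and Benjamini-Hochberg adjustment over all genes with cover in any library, at 0.05. The 8 Ler-family libraries and the 4 of Col-0 and ref6-3 were fitted apart, and the fit was tested on simulated data. Same-numbered K4 libraries deviated together (correlations 0.451 to 0.532 over 6 genotype pairs in the Ler family, 0.371 for the 1 pair of Col-0 and ref6-3). The K4 tests given above did not pair them. No pseudogene was called for K4 with or without the replicate block, so the block had no call to remove.

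Pseudogenes to name were taken from the first 10 per H3K27me3 single-end comparison and direction (5 for K4 and for paired-end), ordered by limma call, size of change and length, from the 10 longest marked by either mark in all its lists and from the 5 longest with both marks in Col-0. Outside that rule, pseudogenes with a symbol were added for their symbol, and the 5 of 4059 bp were chosen, after values were seen. The pseudogenes and lists were chosen with earlier results of these data known. No sequence was used here. Alternatives were other cover minima, stricter peaks, equal numbers of peaks, pseudogenes overlapping no coding gene, other variance floors, no filter, the replicate block and leaving out each library.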

Additional observations from a re-analysis of the deposited data

How the results depend on the processing

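The cause of the shifts given here was not tested. With limma the 21 H3K27me3 calls of 35S::ULT1 became 98 without the variance floor, 44 with the floor before shrinkage (chosen after seeing the data), 0 with the replicate block and 0 to 0 with 1 library left out. Same-numbered H3K27me3 libraries correlated over 0.1 in 1 of 6 genotype pairs of the Ler family (range -0.0603 to 0.394) and in 0 of 1 for Col-0 and ref6-3 (-0.0619), so the numbers were not taken to pair these libraries. The block changed no other limma count. Where limma called 0, removing the floor gave 27 for H3K27me3 in ult1-2, 29 in ult1-3 and 48 in ref6-3, and for K4 15 in ref6-3, 1 in 35S::ULT1, 7 in ult1-2 and 4 in ult1-3. The floor before shrinkage gave 13 for H3K27me3 in ref6-3, and for K4 1 in ref6-3 and 1 in ult1-3. Without the filter limma gave 0 in the 3 K4 comparisons of the Ler family and could not be fitted in the others.

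With loose minima (20% or 200 bp) H3K27me3 gains in 35S::ULT1 were 30 and losses 39, losses of Col-0 against Ler 82, of ref6-3 10 and of ult1-2 0. K4 gains in ult1-2 were 11 and K4 losses in ref6-3 4. With strict minima (80% or 800 bp) paired-end gains in ult1-3 clf-28 were 45 and losses in swn-7 7, H3K27me3 losses 0 in ult1-2 and 1 in ult1-3, K4 gains 4 in ult1-3, and K4 losses 1 in ult1-3, 11 in Col-0 against Ler, 1 in ref6-3 and 0 in ult1-2. With stricter peaks (q at most 1e-10, or the paired-end peaks without the lowest 20% of scores) K4 gains in 35S::ULT1 were 0, and K4 losses 1 in 35S::ULT1, 1 in ult1-2 and 0 in ult1-3. With equal numbers of peaks H3K27me3 gains in 35S::ULT1 were 12, losses 10 in ref6-3 and 3 in ult1-3, and K4 losses 1 in each of 35S::ULT1, ult1-2 and ult1-3. Without pseudogenes overlapping a coding gene the K4 losses of ult1-3 were 1.

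The share marked by H3K27me3 was 6.64% in Ler and 6.14% in Col-0 with loose minima, 4.07% and 4.19% with strict ones, and 4.48% in Ler with equal peaks. The K4 share in Ler was 2.34% with loose minima, 1.29% with strict ones, 1.76% with stricter peaks, 1.72% with equal peaks and 1.66% without overlaps. In Col-0 it was 2.90%, 1.65%, 2.32% (equal peaks) and 2.08% (no overlaps).

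With 1 library fewer the rule asks for less, and counts cannot fall. H3K27me3 gains ran from 19 to 30 in ult1-2, 16 to 27 in ult1-3, 22 to 24 in 35S::ULT1, 27 to 30 in ref6-3 and 54 to 63 in Col-0 against Ler. Losses ran from 4 to 9, 8 to 11, 27 to 41, 8 to 21 and 53 to 65 in the same order. K4 gains ran from 8 to 12, 7 to 10, 2 to 10, 3 to 5 and 40 to 47, and K4 losses from 4 to 7, 2 to 11, 1 to 3, 2 to 4 and 19 to 29. Of 15 gained counts, 13 stayed within 1.5 times under loose and 13 under strict minima, and of 15 lost counts 10 and 8 did. Paired-end counts are limited by unknown depth.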
